A study of Homo sapiens
Mus musculus with 8 samples.

Results

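Beta-actin, its monomer-binding partners thymosin beta 4 and thymosin beta 10, the filament-severing protein cofilin 1 and the filament-binding protein coronin 1A were followed through 4 lymphocyte cell lines and 3 single-cell RNA-seq kits. The 10 genes were chosen by name, with earlier results of these data known, of 27998 mouse and 32738 human genes in the deposited count tables. They are 5 mouse genes (Actb, Tmsb4x, Tmsb10, Cfl1 and Coro1a) and their 5 human counterparts (ACTB, TMSB4X, TMSB10, CFL1 and CORO1A). All 10 passed the filter on low counts in each comparison in which they were tested. The tables identify them as ENSMUSG00000029580, ENSMUSG00000049775, ENSMUSG00000079523, ENSMUSG00000056201 and ENSMUSG00000030707 in mouse, and as ENSG00000075624, ENSG00000205542, ENSG00000034510, ENSG00000172757 and ENSG00000102879 in human, in the same order.

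Actin monomers add to the growing end of filaments, and the balance between monomers and filaments sets the shape of a lymphocyte, its movement and its contact with other cells. The beta thymosins are short peptides that bind single actin monomers and hold them back from filaments. Cofilin severs old filaments and returns monomers to the pool, and coronin 1A, a protein of blood cells, binds filaments and the Arp2/3 complex, which nucleates branches.

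The samples were libraries of one kind of cell suspension, in which equal parts of 4 unmodified lines had been mixed: the mouse lines EL4 (CD4 T cells) and IVA12 (B cells), and the human lines Jurkat (CD4 T cells) and TALL-104 (CD8 T cells, small and grown with interleukin 2). Libraries came from the Chromium kits 3′ v3 (4 libraries, with 3000 or 6000 targeted cells), 5′ v1 (2 libraries, with 5000 or 2000) and 3′ v2 (replicate 2 alone, with 2000), and replicate numbers pair nothing across kits. By the study's supplement, replicates 1 and 3 of 3′ v3 were made from one cell mixture, replicates 2 and 4 from another, both 5′ v1 libraries from a further one and 3′ v2 from yet another, so that kit and mixture cannot be told apart and p-values measure a spread between libraries that is partly technical. Each line stands for 1 cell line grown in culture, and for no primary T or B cell.

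Each captured molecule carries a unique molecular identifier (UMI), which was counted once whichever part of the transcript was sequenced. Libraries held 24790710 to 251164949 UMIs. Barcodes with at least 1000 UMIs, over 80% of them from one species, were given to a line by a few genes that are no members. This named 30 to 4136 cells per library and line. The smallest pools were TALL-104 in 5′ v1 replicate 2 (30 cells), 3′ v2 (41) and 5′ v1 replicate 1 (70). Median depths were 10075 to 31126 UMIs per cell outside TALL-104 and 1929 to 2761.5 UMIs in TALL-104. Levels are given in CPM, the UMIs of a gene per 1000000 UMIs of its own species, summed over the cells of a line in a library. Any 2 libraries shared at most 24 named barcodes. In 3′ v3 replicate 4, 6 EL4 barcodes of over 150000 UMIs held 8.53% of that pool; leaving them out changed no call on a member.

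The lines were checked with listed markers that the naming rule had not used. Of the EL4 markers found, 5 of 6 were higher in EL4 than in IVA12 in every library, and their summed level was 1424 to 1909 CPM against 3.36 to 35.0 CPM, while Cd4 lay below 1 CPM. Of the IVA12 markers, 5 of 8 were higher in every library (summed level 422 to 629.6 CPM against 2.29 to 20.1 CPM in EL4), but the class II gene H2-Ab1 had a median of 0 CPM, and Cd79a and H2-Aa stood below 1 CPM. TALL-104 passed on 5 of 8 markers, with a summed level of 2762 to 9144 CPM against 34.9 to 121.7 CPM in Jurkat, yet CD8B had a median of 0.475 CPM there and 6.30 CPM in Jurkat. For Jurkat 5 of 8 markers were higher in every library, but their summed level, 2564 to 3209 CPM, overlapped the 2004 to 2826 CPM of TALL-104. Among those 5, CD4 and RAG1 lay near the floor, with medians of 1.18 and 1.04 CPM against 0 CPM in TALL-104. The smallest TALL-104 pool held 92258 human UMIs, in which a gene near 1 CPM can go unseen. The shared T-cell gene CD3E was lower in Jurkat than in TALL-104 in all 7 libraries. CD3D and CD3G had lower medians (937 against 1018 CPM and 426 against 507 CPM). Within libraries CD3D was higher in Jurkat in 5 of 7, and CD3G in 3 of 7.

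**Figure D1:**
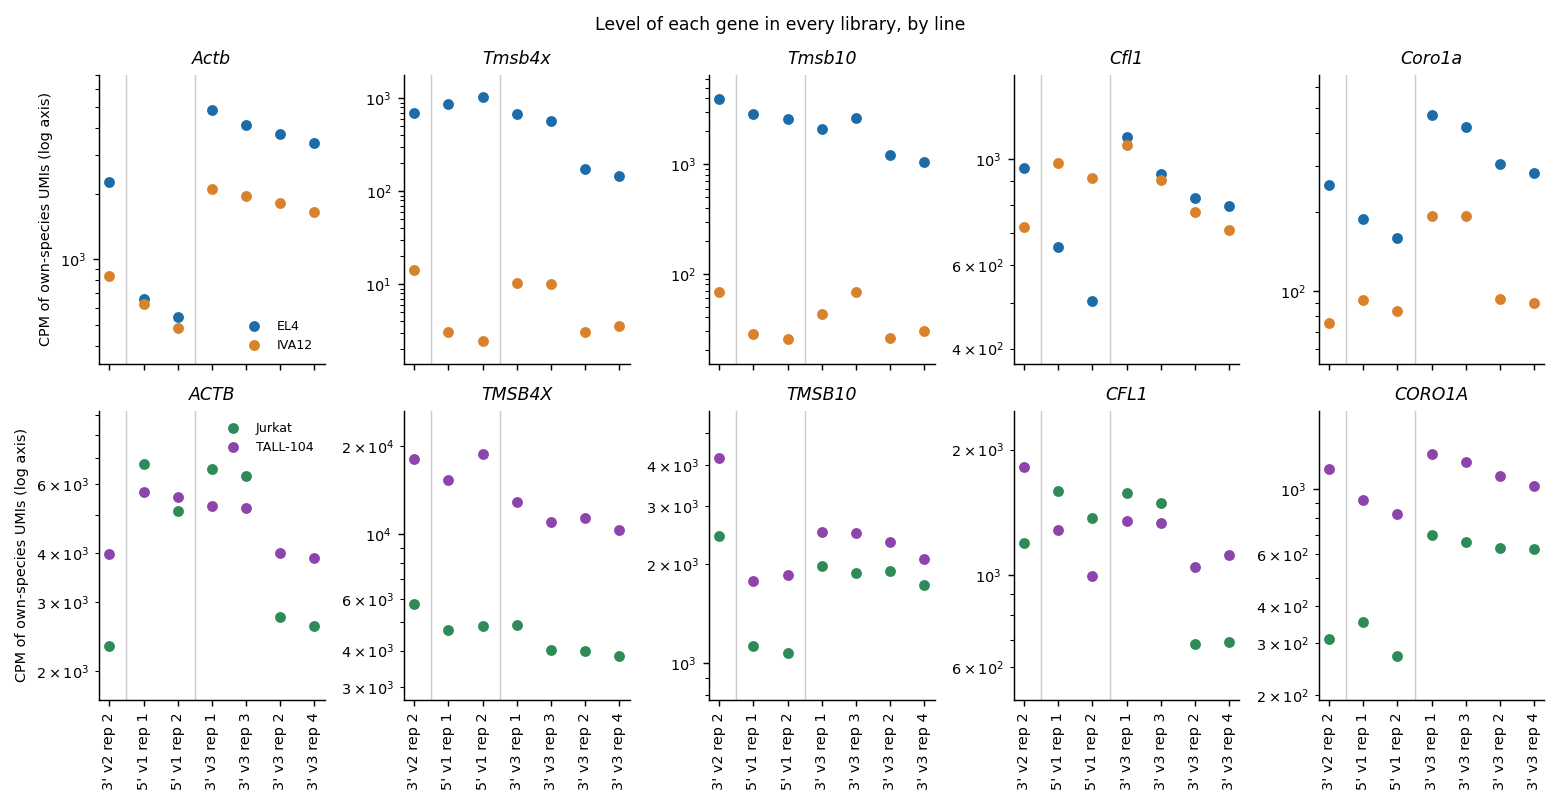
Level of each of the 10 genes in every library, in CPM of own-species UMIs on a log axis, with 1 point per library and line and grey lines between kits. Tmsb4x and Tmsb10 of IVA12 lie far below those of EL4 in all 7 libraries, mouse Actb is lowest in the 5′ v1 libraries, and Jurkat ACTB and CFL1 drop in 3′ v3 replicates 2 and 4.

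Which of these genes set the mouse T line apart from the mouse B line was asked first, within each library, since both lines had shared every library. EL4 held far more of both thymosins than IVA12, more coronin 1A and more beta-actin, and cofilin 1 showed no fitted difference. By edgeR's quasi-likelihood test with library as a block, 4 of the 5 genes were higher in EL4 at an adjusted p under 0.05 and 0 were lower. Among all 11734 mouse genes tested 77.0% passed, 39.0% as higher in EL4 and 37.9% as higher in IVA12, so that passing this test is the rule between these lines, and the sizes say more than the calls. The median log2 difference of the 5 genes was 1.44, beside 0.0044 over all genes.

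Thymosin beta 4 (Tmsb4x) stood at 687, 174, 568.5 and 146 CPM in EL4 in 3′ v3 replicates 1 to 4, at 876 and 1027 CPM in 5′ v1 replicates 1 and 2 and at 691 CPM in 3′ v2. In IVA12 the levels in the same order were 10.2, 3.10, 10.0 and 3.55 CPM, then 3.05 and 2.46 CPM, then 14.1 CPM. No IVA12 library came near an EL4 library, and the fold within a library ran from 41.0 to 418. The fitted log2 difference was 6.52 (SE 0.471, adjusted p = 4.41e-07), or 5.86 in the 3′ v3 libraries alone and 8.55 in 5′ v1 alone.

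Thymosin beta 10 (Tmsb10) behaved alike. EL4 held 2116, 1204, 2629 and 1045 CPM in 3′ v3, 2897 and 2608 CPM in 5′ v1 and 3939 CPM in 3′ v2. IVA12 held 42.6, 26.1, 68.0 and 30.3 CPM in 3′ v3, 28.3 and 25.3 CPM in 5′ v1 and 68.0 CPM in 3′ v2. Again the ranges did not overlap, with folds of 34.6 to 103 within a library and a fitted log2 difference of 5.91 (SE 0.261, adjusted p = 2.25e-08).

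The small IVA12 levels were set beside free RNA, the transcripts in barcodes with under 100 UMIs, scaled in each pool by its UMIs of the other species. By this estimate, free RNA alone would have given IVA12 1.95 to 30.1 CPM of Tmsb4x. The measured level was at or below that in 5 of 7 libraries. For Tmsb10 it would have given 5.70 to 168 CPM, and 4 of 7 libraries were at or below it, while 5′ v1 replicate 2 and 3′ v3 replicate 3 lay above (25.3 against 5.70 CPM and 68.0 against 32.5 CPM), as did 5′ v1 replicate 1 (28.3 against 18.1 CPM). In EL4 free RNA was at most 24.5% of the Tmsb4x level and 15.7% of the Tmsb10 level. The folds above are therefore measured against a level that, in most libraries, is no larger than this estimate. The estimate reached 354% of the IVA12 level for Tmsb4x and 247% for Tmsb10. A pool cannot hold less of a gene than its free RNA brings, so the estimate is too high in such libraries. Of mouse UMIs in human cells, the Tmsb4x share was 1.03 times that in free RNA in 3′ v3 and 0.663 times in 5′ v1. It was 2.54 times in 3′ v2, on 33 UMIs. For Tmsb10 the values were 1.10, 0.327 and 1.29 times, in the same order. How much of the IVA12 level is free RNA is not settled by the estimate. With free RNA subtracted the fitted differences became 10.7 for Tmsb4x and 9.64 for Tmsb10, values that depend on the prior count of the fit where IVA12 is left with nothing.

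Cells gave the same picture. When every cell was thinned to 1000 UMIs, Tmsb4x was seen in 11.4% to 47.8% of EL4 cells, in 0.201% to 2.12% of IVA12 cells and in 0% to 1.04% of the human Jurkat cells, which cannot express a mouse gene. The 0 was 0 of 291 Jurkat cells in 3′ v3 replicate 2. Tmsb10 was seen in 60.8% to 94.0% of EL4 cells, 2.62% to 9.71% of IVA12 cells and 0.314% to 4.68% of Jurkat cells. Without thinning, where depth counts, Tmsb4x was seen in 71.5% to 95.04% of EL4 cells and 3.29% to 21.9% of IVA12 cells, and Tmsb10 in 96.4% to 99.1% and 40.5% to 79.6%. After thinning, the exact 95% intervals of the IVA12 and Jurkat shares of Tmsb4x overlapped in all libraries but 3′ v3 replicate 3 (2.12% against 1.02%), and the IVA12 share of Tmsb10 was above the Jurkat share in all 7 libraries.

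**Figure D2:**
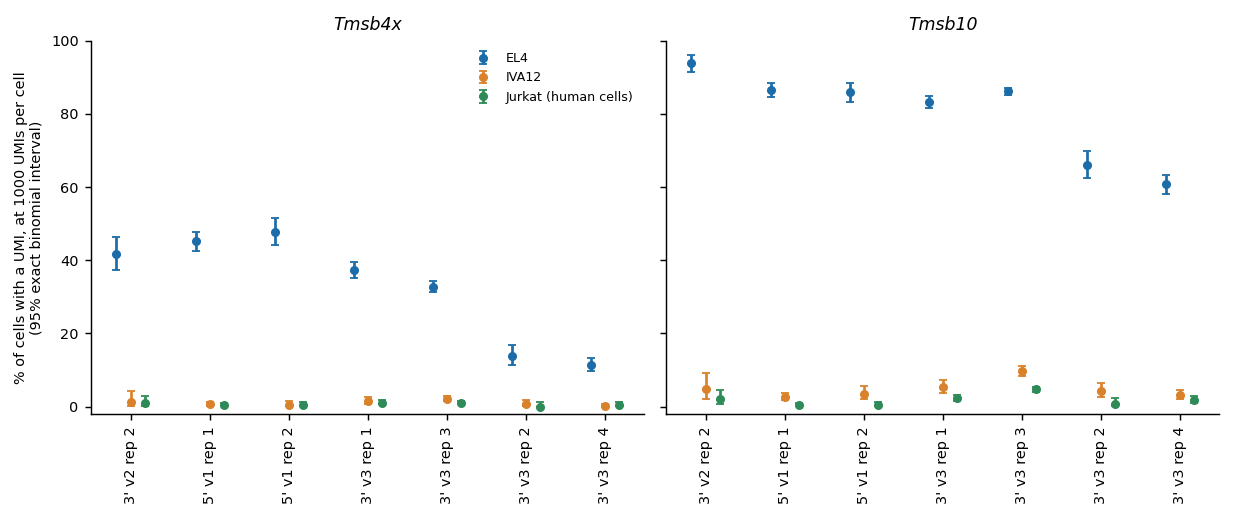
Percent of cells with at least 1 UMI of Tmsb4x (left) or Tmsb10 (right) after thinning each cell to 1000 UMIs, per library, with exact 95% binomial intervals that cover counting error only. EL4 shares run from 11.4% to 47.8% for Tmsb4x and from 60.8% to 94.0% for Tmsb10, while IVA12 stays at or below 9.71%, near the human Jurkat cells for Tmsb4x and above them in all 7 libraries for Tmsb10.

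Coronin 1A (Coro1a) had 469, 304, 421 and 282 CPM in EL4 in the 3′ v3 libraries, 188 and 159.6 CPM in 5′ v1 and 254 CPM in 3′ v2. The IVA12 levels were 193, 93.0, 193 and 89.8 CPM in 3′ v3, 92.2 and 83.7 CPM in 5′ v1 and 75.2 CPM in 3′ v2. EL4 was higher in 7 of 7 libraries by 1.91-fold to 3.37-fold, although the ranges over all libraries overlapped, and the fitted log2 difference was 1.44 (SE 0.113, adjusted p = 7.69e-07).

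Beta-actin (Actb) showed a smaller difference, smallest in the 5′ v1 libraries. EL4 held 4815, 3751, 4138 and 3418 CPM in 3′ v3, but 661 and 543 CPM in 5′ v1, and 2253 CPM in 3′ v2. IVA12 held 2105, 1819, 1957 and 1651 CPM in 3′ v3, 622 and 485 CPM in 5′ v1, and 843 CPM in 3′ v2. EL4 exceeded IVA12 in every library, by up to 2.67-fold in 3′ v2 and by as little as 1.06-fold in 5′ v1 replicate 1. The fitted log2 difference was 0.96 (SE 0.159, adjusted p = 2.56e-04), or 1.15 in the 3′ v3 libraries alone and 0.33 in the 5′ v1 libraries alone.

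Cofilin 1 (Cfl1) had opposite directions in the 3′ v3 and 5′ v1 libraries. Its EL4 levels were 1114, 827, 929.9 and 799 CPM in 3′ v3, 653 and 503 CPM in 5′ v1 and 957 CPM in 3′ v2, and its IVA12 levels were 1069, 774, 906 and 710.2 CPM, then 984 and 911 CPM, then 721 CPM. EL4 was the higher line in 5 of 7 libraries, and IVA12 in both 5′ v1 libraries. Over all libraries the log2 difference was -0.00068 (SE 0.135, 95% interval -0.27 to 0.26, adjusted p = 0.997). In 3′ v3 alone it was 0.15 (SE 0.04425, adjusted p = 0.0158) and in 5′ v1 alone -0.52 (SE 0.0693). Each was past the threshold in edgeR's test, as were 79.2% and 85.1% of all mouse genes in these fits. The 5′ v1 fit has 2 libraries of the same mixture, so its spread is that of library preparation.

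Between the human lines, 3 of the 5 genes differed, each higher in the cytotoxic line. TALL-104 held more thymosin beta 4, coronin 1A and thymosin beta 10 than Jurkat, and beta-actin and cofilin 1 did not pass the test. In edgeR's test with library as a block, 3 of the 5 genes were higher in TALL-104 and 0 in Jurkat at an adjusted p under 0.05, in a comparison where 65.2% of 10228 genes passed, 34.3% as higher in Jurkat and 30.9% as higher in TALL-104. The median log2 difference of the 5, Jurkat minus TALL-104, was -0.55 beside 0.05 over all genes. With DESeq2 the median of all genes was 0.20, a shift of 0.14, and each of these calls stayed in place.

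Thymosin beta 4 (TMSB4X) reached 12921, 11397, 11025 and 10344 CPM in TALL-104 in 3′ v3 replicates 1 to 4, 15258 and 18752 CPM in 5′ v1 and 18057 CPM in 3′ v2, which is over 1% of all human UMIs of the line in each library. Jurkat held 4879, 3994, 4005 and 3820.5 CPM in 3′ v3, 4717 and 4862 CPM in 5′ v1 and 5784 CPM in 3′ v2. The lines did not overlap, and TALL-104 was 2.65-fold to 3.86-fold higher within a library. The fitted log2 difference was -1.63 (SE 0.144, adjusted p = 2.60e-10).

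Thymosin beta 10 (TMSB10) differed less. TALL-104 had 2496, 2333, 2490.4 and 2077 CPM in 3′ v3, 1775 and 1854 CPM in 5′ v1 and 4205 CPM in 3′ v2, and Jurkat had 1971, 1902, 1875 and 1727 CPM, then 1124 and 1074 CPM, then 2439 CPM. TALL-104 was higher in 7 of 7 libraries, by 1.2025-fold to 1.73-fold, and the ranges across libraries overlapped. The fitted log2 difference was -0.55 (SE 0.139, adjusted p = 1.15e-03).

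Coronin 1A (CORO1A) stood at 1309, 1106, 1230.2 and 1027 CPM in TALL-104 in 3′ v3, at 916 and 824 CPM in 5′ v1 and at 1169.5 CPM in 3′ v2. Jurkat held 699.6, 629, 659 and 626 CPM in 3′ v3, 353 and 271 CPM in 5′ v1 and 309.5 CPM in 3′ v2. The lines again did not overlap (1.64-fold to 3.78-fold higher in TALL-104), with a fitted log2 difference of -1.21 (SE 0.148, adjusted p = 8.48e-08).

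Beta-actin (ACTB) split the Jurkat libraries into a high and a low set. Jurkat held 6573 and 6296 CPM in 3′ v3 replicates 1 and 3, 6741 and 5117 CPM in 5′ v1, but 2749 and 2613 CPM in 3′ v3 replicates 2 and 4 and 2316 CPM in 3′ v2. TALL-104 moved less, with 5292, 3994, 5226 and 3888 CPM in 3′ v3, 5722 and 5582 CPM in 5′ v1 and 3981 CPM in 3′ v2. Jurkat was the higher line in 3 of 7 libraries, and the fitted log2 difference of -0.22 (SE 0.154, 95% interval -0.52 to 0.08) did not pass (adjusted p = 0.217). The highest Jurkat library held 2.91 times the ACTB level of the lowest, against 1.47 times in TALL-104.

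Cofilin 1 (CFL1) was low in the same 3′ v3 libraries of Jurkat as ACTB, but not in 3′ v2. Its level was 1574 and 1490.4 CPM in 3′ v3 replicates 1 and 3, 685 and 689.8 CPM in replicates 2 and 4, 1587 and 1368 CPM in 5′ v1 and 1196 CPM in 3′ v2. TALL-104 held 1347, 1048, 1336 and 1118 CPM in 3′ v3, 1279 and 997 CPM in 5′ v1 and 1816 CPM in 3′ v2. Jurkat was higher in 4 of 7 libraries, and the fitted log2 difference was -0.17 (SE 0.165, 95% interval -0.49 to 0.16, adjusted p = 0.383). In the 5′ v1 libraries alone Jurkat was higher, by 0.40 on the log2 scale (SE 0.128, adjusted p = 0.00897), and in the 3′ v3 libraries alone the difference was -0.37 (SE 0.17, adjusted p = 0.0761). In these fits 28.2% and 66.3% of all human genes passed. The 5′ v1 fit has 2 libraries of the same mixture, and its TALL-104 pools held 271 and 92 CFL1 UMIs. Its small spread is that of library preparation.

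**Figure D3:**
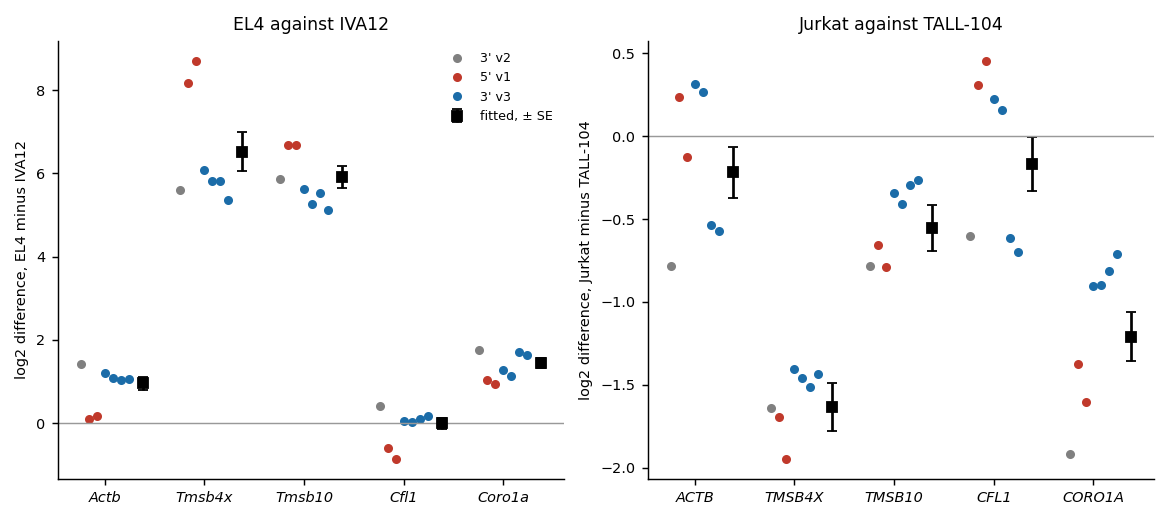
Log2 difference in CPM between the lines of each species, 1 point per library coloured by kit, with the fitted value and its standard error as a black square. Both mouse thymosins lie above 5 in all 7 libraries, TMSB4X and CORO1A lie below 0 in all 7, and Cfl1, ACTB and CFL1 have points on both sides of 0.

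The ratios among these transcripts were compared between lines in the same libraries, which removes any scaling of a pool. Thymosin UMIs (both genes) per beta-actin UMI numbered 0.348 to 6.70 in EL4 and 0.0161 to 0.0975 in IVA12. The mean log2 difference, EL4 minus IVA12, was 5.07 ± 1.22 (SD, n = 7), positive in 7 of 7 libraries. No library lay near that mean: the difference was 6.82 and 6.87 in 5′ v1 and 4.09 to 4.54 in the 3′ libraries. An exact two-sided sign-flip permutation test gave p = 0.0156, the smallest p this design allows, and an adjusted p of 0.0208 over the 4 ratio tests. With free RNA subtracted, this ratio could be taken in 3 libraries only (mean 7.01, exact permutation p = 0.25, the smallest possible). The 7 libraries came from 4 cell mixtures; averaged within mixtures, each of the 4 ratio tests has a smallest possible p of 0.125 and none can pass. In the human lines the ratio was 0.866 to 3.55 in Jurkat and 2.59 to 5.59 in TALL-104. Jurkat was lower in 7 of 7 libraries by a mean of -1.19 ± 0.524 (SD, n = 7; exact permutation p = 0.0156, adjusted p = 0.0208).

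The balance of the 2 thymosins also differed between the human lines. Jurkat had 0.221 to 0.476 TMSB10 UMIs per TMSB4X UMI, and TALL-104 had 0.0988 to 0.233, a mean log2 difference of 1.08 ± 0.121 (SD, n = 7), positive in all 7 libraries (exact permutation p = 0.0156, adjusted p = 0.0208). Its range over libraries, 0.86 to 1.22, was the narrowest of the 4 ratio comparisons. In mouse the ratio of Tmsb10 to Tmsb4x was 2.54 to 7.18 in EL4 and 4.18 to 10.3 in IVA12, and the mean log2 difference of -0.68 ± 0.788 (SD, n = 7) was negative in 6 of 7 libraries (exact permutation p = 0.0312, adjusted p = 0.0312). That last ratio rests on as few as 27 Tmsb4x UMIs in an IVA12 pool and on levels near free RNA. Without 3′ v3 replicate 1, 2, 3 or 4, or without either 5′ v1 library, its p rose to 0.0625.

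How the kits bear on these genes was asked within each line, 3′ v3 (4 libraries) against 5′ v1 (2 libraries). Mouse beta-actin stood out: its level was 4030.4 ± 600.05 CPM (SD, n = 4) in 3′ v3 and 602 ± 83.5 CPM (SD, n = 2) in 5′ v1 in EL4, and 1883 ± 194 CPM against 553 ± 96.6 CPM in IVA12. The fitted log2 difference, 3′ v3 minus 5′ v1, was 2.71 in EL4 (SE 0.33, adjusted p = 1.50e-03) and 1.81 in IVA12 (SE 0.254, adjusted p = 9.53e-03), by edgeR's quasi-likelihood test. It was the only one of the 5 genes past the threshold in either mouse line, where 36.7% (EL4) and 9.66% (IVA12) of all genes passed. The other EL4 genes gave 1.07 for Coro1a (adjusted p = 0.0546), 0.63 for Cfl1 (0.136), -0.65 for Tmsb10 (0.325) and -1.22 for Tmsb4x (0.213). EL4 Coro1a passed in 6 of 17 alternatives. These were without 3′ v3 replicate 2 (adjusted p = 0.0340) or 4 (0.0252), with DESeq2 (0.0109), with library totals in place of TMM (0.0157) and within either pair of 3′ v3 replicates. In these 6 fits 33.9% to 70.8% of all genes passed. The other IVA12 genes gave 1.39 for Tmsb4x (adjusted p = 0.236), 0.72 for Tmsb10 (0.370), 0.78 for Coro1a (0.335) and -0.08 for Cfl1 (0.885). In IVA12 the Actb call was lost without 5′ v1 replicate 1 (log2 difference 2.03) and without replicate 2 (1.63), as were most calls over all genes. Each of these fits leaves 1 library of 5′ v1, assumed to vary like the others.

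Human beta-actin did not pass in either line over all 4 libraries of 3′ v3. ACTB averaged 4558 ± 2171 CPM (SD, n = 4) in 3′ v3 and 5929 ± 1149 CPM (SD, n = 2) in 5′ v1 in Jurkat, a fitted log2 difference of -0.35 (SE 0.55, 95% interval -1.42 to 0.73, adjusted p = 0.687). In TALL-104 the means were 4600.3 ± 762.5 and 5652 ± 98.6 CPM and the difference -0.15 (SE 0.391, adjusted p = 0.859). The intervals of both human lines exclude the fitted size found in either mouse line; mouse and human genes were fitted apart, and the difference between species itself was not tested.

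Gamma-actin, whose coding sequence is close to that of beta-actin so that reads could be split between them, moved less than Actb. Actg1 averaged 1856 ± 362 CPM in 3′ v3 and 1398.5 ± 16.8 CPM in 5′ v1 in EL4, and 1584 ± 103 against 1071 ± 20.4 CPM in IVA12 (log2 difference 0.59, adjusted p = 0.0496 in IVA12). ACTG1 averaged 1833 ± 558 against 1547 ± 218 CPM in Jurkat and 1276 ± 139 against 1391 ± 25.0 CPM in TALL-104. As a check for Actb molecules counted as human, mouse cells of the 5′ v1 libraries held 381 ACTB UMIs, 0.474% of their human UMIs, beside 0.786% in free RNA and 0.622% in human cells. In 3′ v3 the share in mouse cells was 0.707%, above free RNA (0.488%) and human cells (0.586%). The predicted gene Gm9844, which resembles Tmsb10, held 6.09 to 18.1 CPM in EL4 and 0.0797 to 0.556 CPM in IVA12, and POTEF, a relative of ACTB, held 0 to 0.304 CPM in Jurkat and 0 CPM in TALL-104 apart from a single UMI in 5′ v1 replicate 2. Reads that could not be told apart between a member and its copies were not measured here. The same holds for reads that match a member and its counterpart of the other species alike, which the check above cannot see.

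Among the human genes only CORO1A passed in Jurkat, where 17.5% of 14131 genes passed. It averaged 654 ± 34.1 CPM (SD, n = 4) in 3′ v3 and 312 ± 57.9 CPM (SD, n = 2) in 5′ v1, a log2 difference of 1.03 (SE 0.283, adjusted p = 0.0462). The call is a narrow one: in edgeR's test the adjusted p was 0.05795, 0.05758 and 0.0744 without 3′ v3 replicate 1, 2 or 3. Of all genes 15.9%, 13.1% and 13% passed there. The call was also lost without 5′ v1 replicate 1 or 2 (log2 difference 1.29 and 0.80), as were most calls over all genes. Each of those fits leaves 1 library of 5′ v1. TMSB10 averaged 1869 ± 103 CPM and 1099 ± 35.5 CPM (log2 difference 0.74, SE 0.257, adjusted p = 0.0889). It passed with DESeq2 (adjusted p = 0.0160), with library totals (0.0161) and within either pair of 3′ v3 replicates. In these fits 26.0%, 14.7%, 59.8% and 72.9% of all genes passed. In TALL-104, where 4.32% of 8929 genes passed and the 5′ v1 pools held 100 cells in all, 0 of the 5 genes passed in edgeR or DESeq2, and 0 had an unadjusted p under 0.05.

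**Figure D4:**
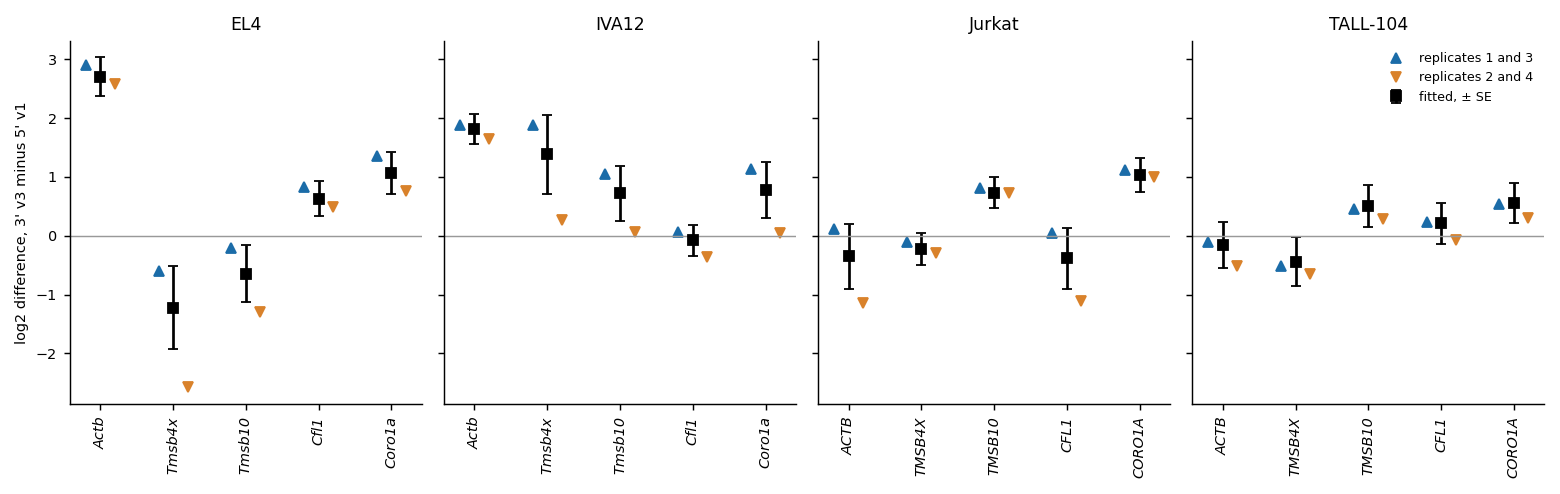
Log2 difference between 3′ v3 and 5′ v1 in each line: the fitted value with its standard error over 4 against 2 libraries (black squares), and the ratio of mean CPM for 3′ v3 replicates 1 and 3 (blue) or 2 and 4 (orange) over 5′ v1. Actb lies above 1.5 in both mouse lines under either pair of replicates, while EL4 Tmsb4x and Jurkat ACTB and CFL1 depend on which pair is used.

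The 4 libraries of 3′ v3 differed for several genes by the 2 cell mixtures named in the study's supplement. EL4 Tmsb4x averaged 628 CPM in replicates 1 and 3 and 159.9 CPM in replicates 2 and 4, a 3.93-fold gap, and EL4 Tmsb10 averaged 2373 and 1125 CPM (2.11-fold). Jurkat ACTB averaged 6435 and 2681 CPM (2.40-fold) and CFL1 1532 and 687 CPM (2.23-fold), while TMSB4X (1.14-fold), CORO1A (1.08-fold) and TMSB10 (1.06-fold) of the same Jurkat pools differed little. IVA12 Coro1a averaged 193 and 91.4 CPM (2.11-fold). In TALL-104 no member differed by more than 1.33-fold between the pairs. With 2 libraries in each pair, and mixtures named by the supplement but by no sample label, these gaps are given as values only.

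Read within each pair, the kit comparison changes for several genes. Against 5′ v1, EL4 Tmsb4x was lower in 3′ v3 by -0.48 on the log2 scale with replicates 1 and 3 alone (SE 0.127, adjusted p = 0.0118) and by -2.87 with replicates 2 and 4 alone (SE 0.112, adjusted p = 1.65e-07), beside -1.22 and an adjusted p of 0.213 over all 4. Jurkat ACTB differed by 0.27 with replicates 1 and 3 (SE 0.183, adjusted p = 0.218) and differed by -1.33 with replicates 2 and 4 (SE 0.111, adjusted p = 3.07e-11). Jurkat CFL1 gave 0.20 (adjusted p = 0.258) and -1.285 (adjusted p = 7.09e-12). In edgeR's test EL4 Tmsb10 gave -0.09 (adjusted p = 0.604) and -1.58 (adjusted p = 9.93e-07). TALL-104 ACTB gave 0.14 (adjusted p = 0.604) and -0.61 (adjusted p = 1.04e-04), where 17.9% and 34.6% of all genes passed. Mouse Actb passed under both pairs, at 3.01 and 2.28 in EL4 and 2.04 and 1.55 in IVA12 (adjusted p from 2.90e-14 to 2.27e-05). Jurkat CORO1A also did, at 1.27 and 0.82 (adjusted p = 2.88e-06 and 1.87e-07). Both pairs are set against the same 2 libraries of 5′ v1, so the fits are not independent of each other. In these fits 66.4% and 70.8% of all genes passed in EL4, 60.2% and 66.9% in IVA12 and 59.8% and 72.9% in Jurkat, so that passing is again the rule. They compare repeat libraries of 2 mixtures, so their small spread is that of library preparation.

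The share of mitochondrial UMIs moved with part of this pattern. Jurkat cells had a median mitochondrial share of 10.1% and 10.2% in 3′ v3 replicates 2 and 4, and 3.01% to 6.26% in the other libraries. Within replicates 2 and 4, Jurkat cells above 10% mitochondrial UMIs and those at or below held ACTB of 2736 and 2766 CPM in replicate 2 and of 2629.6 and 2590.2 CPM in replicate 4, and CFL1 of 695.5 and 671 CPM, then 699 and 677 CPM. In the other Jurkat libraries with enough cells on both sides, cells above 10% held less ACTB. The values were 5286 against 6598 CPM in 3′ v3 replicate 1, 4134 against 6300.4 CPM in replicate 3, 3569 against 6754 CPM in 5′ v1 replicate 1 and 3493 against 5136 CPM in replicate 2. CFL1 in those cells was 1523 against 1575 CPM, 750.1 against 1492 CPM, 777 against 1590.2 CPM and 772 against 1375 CPM, in the same order. In 3′ v2 the median mitochondrial share of Jurkat cells was 3.01%. The part of mitochondrial share in the ACTB and CFL1 levels was not tested. For EL4 Actb the direction differed by kit: cells above 10% held 1125 CPM against 652 CPM in 5′ v1 replicate 1 and 1036 against 530.4 CPM in replicate 2, but 3451 against 4849 CPM in 3′ v3 replicate 1 and 2541 against 4162 CPM in replicate 3. Thymosin beta 10 of EL4 was lower in cells above 10% in 7 of 7 libraries, by -0.50 to -2.36 on the log2 scale.

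The difference between lines itself differed between the 3′ v3 and 5′ v1 libraries for the mouse genes. These kits came from separate cell mixtures, so kit and mixture cannot be told apart here. Repeat libraries of a mixture were counted as separate, so the p-values measure a spread that is partly technical. In one model with library as a block, 4 of the 5 mouse genes had a line difference that differed between 3′ v3 and 5′ v1 at an adjusted p under 0.05, where 34.3% of 12020 genes passed. The difference EL4 minus IVA12 was larger in 3′ v3 by 0.83 for Actb (SE 0.0963, adjusted p = 4.30e-04) and by 0.68 for Cfl1 (SE 0.104, adjusted p = 1.53e-03). It was smaller in 3′ v3 by -2.69 for Tmsb4x (SE 0.227, adjusted p = 1.29e-04) and by -1.44 for Tmsb10 (SE 0.148, adjusted p = 2.61e-04). With free RNA subtracted the thymosin values were -3.20 (adjusted p = 0.292) and 2.63 (SE 2.08, adjusted p = 0.414). Those 2 calls are lost in that refit, where 20.9% of all genes passed, and the direction for Tmsb10 turns. The free RNA estimate exceeded the measured IVA12 level in several libraries, so the refit cannot decide either thymosin value. For Coro1a the value was 0.32 (SE 0.142, adjusted p = 0.112), and 0.40 (adjusted p = 0.0435) without 3′ v3 replicate 3.

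In human, 0 of the 5 genes passed that test in edgeR, where 1.26% of 10460 genes passed, and 0 passed in DESeq2. The largest value was -0.82 for CFL1 (SE 0.285, unadjusted p = 0.01004, adjusted p = 0.160), the only one of the 5 with an unadjusted p under 0.05. The median over all genes was -0.26 in this fit, and -0.05 with library totals in place of TMM, where CFL1 came to -0.61.

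Across the rest of the actin machinery, 82 further genes had been listed by role, with earlier results of these data known. Their counts by direction were unequal in both species. Of 79 tested in mouse, 52 were higher in EL4, 14 higher in IVA12 and 13 did not pass, with a median log2 difference of 0.54. In human 78 were tested, of which 52 were higher in TALL-104, 12 higher in Jurkat and 14 did not pass, with a median of -0.66. The share called in either direction, 83.5% and 82.1%, is to be read beside the 77.0% and 65.2% of all genes.

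By role, the 9 tested subunits of the Arp2/3 complex were higher in EL4 in 8 cases and lower in 1 (Arpc5l), and higher in TALL-104 in 7 and lower in 1 (ARPC1A). Of 8 bundling and crosslinking proteins, 7 were higher in EL4 and 1 in IVA12, and 5 were higher in TALL-104 with 2 higher in Jurkat. Of 5 filament elongators, 4 were higher in EL4 and 1 in IVA12, and 3 in TALL-104 and 1 in Jurkat. Of 5 myosin genes, 3 were higher in EL4 and 4 in TALL-104. Of the other monomer-binding proteins, 1 of 4 was higher in EL4 and 2 were lower, and 4 of 5 were higher in TALL-104 and 1 in Jurkat. Of 10 activators of the Arp2/3 complex, 6 were higher in EL4 and 4 in IVA12, and of 9 tested in human 6 were higher in TALL-104 and 0 in Jurkat. Of 9 severing and turnover proteins, 5 were higher in EL4 and 3 in IVA12, and 5 in TALL-104 and 2 in Jurkat. Of 3 tropomyosins, 1 was higher in EL4 and 0 in IVA12, whereas 2 were higher in Jurkat and 1 in TALL-104. Of SRF and its coactivators, 2 of 3 were higher in EL4, and 1 was higher in each human line. Among all genes 39.0% were higher in EL4 and 37.9% in IVA12, and 34.3% in Jurkat and 30.9% in TALL-104.

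The largest differences on the list named particular proteins. Higher in EL4 were Evl, an Ena/VASP protein of filament ends (log2 difference 6.58, SE 0.349), Actn1, the crosslinker alpha-actinin 1 (5.45, SE 0.26), and Gsn, the severing protein gelsolin (4.86, SE 0.139). Higher in IVA12 were Cttn, the branch-binding protein cortactin (-5.48, SE 0.388), Capg, a capping protein (-4.64, SE 0.345), and Lsp1, a filament-binding protein of leukocytes (-3.20, SE 0.195). Higher in TALL-104 were LSP1 (-5.83, SE 0.27), WIPF1, the partner of the Wiskott-Aldrich protein (-3.24, SE 0.145), and CAPG (-2.64, SE 0.169). Higher in Jurkat were PFN2, profilin 2 (4.25, SE 0.313), ACTN1 (4.03, SE 0.272) and ENAH, another Ena/VASP protein (3.62, SE 0.363). Each passed at an adjusted p of at most 5.36e-07. On the same scale, EL4 minus IVA12, Tmsb4x was at 6.52 and Tmsb10 at 5.91, both between Evl and Actn1 before any subtraction of free RNA, while Actb stood at 0.96 beside the median of 0.54 for the other listed mouse genes.

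**Figure D5:**
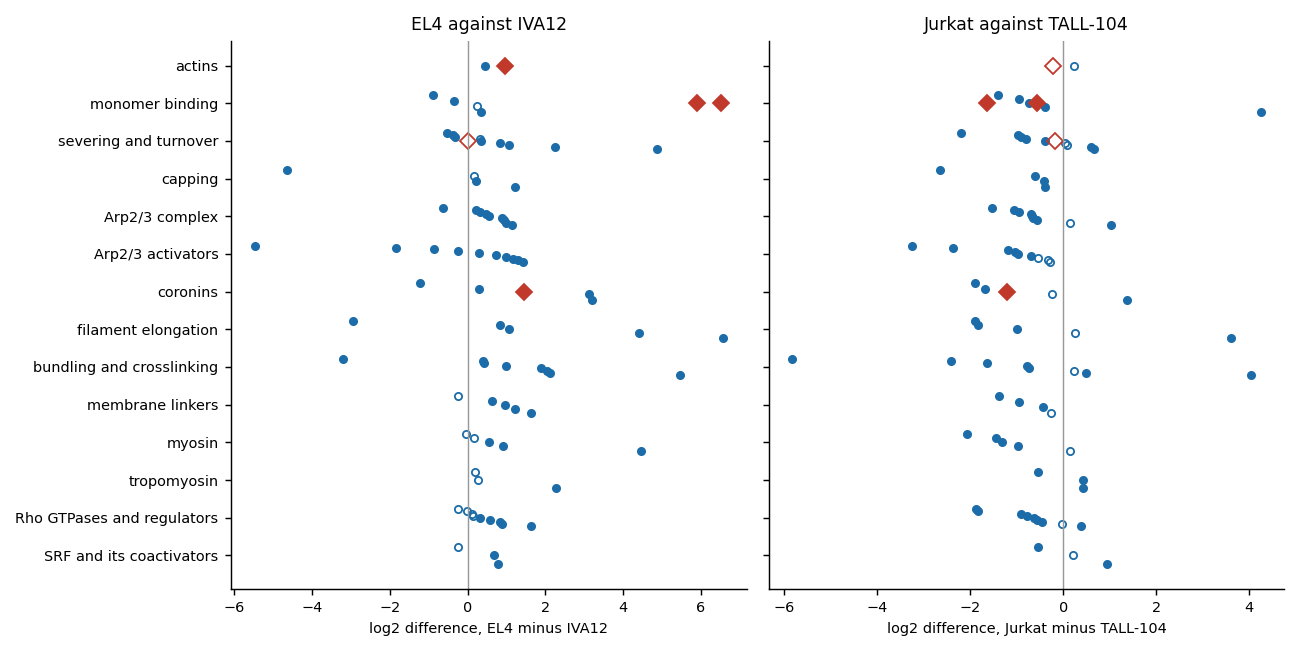
Log2 difference between lines for every tested gene of the actin list by role, EL4 minus IVA12 (left) and Jurkat minus TALL-104 (right); red diamonds are the members, blue circles the other genes, and filled symbols passed at an adjusted p under 0.05. Most circles lie to the right in mouse (52 higher in EL4) and to the left in human (52 higher in TALL-104).

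Of these 82 genes, between 3′ v3 and 5′ v1, 24 of 79 passed in EL4 (11 higher and 13 lower in 3′ v3), 4 of 79 in IVA12, 16 of 82 in Jurkat and 7 of 74 in TALL-104. The kit-dependent line difference passed for 31 of 80 mouse genes and 4 of 78 human genes. As shares of the genes tested these were 30.4%, 5.06%, 19.5% and 9.46% for the kits in the 4 lines, beside 36.7%, 9.66%, 17.5% and 4.32% of all genes, and 38.8% and 5.13% for the kit-dependent line difference in mouse and human, beside 34.3% and 1.26% of all genes.

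From cell to cell, Tmsb4x was the most uneven of the 5 genes in EL4, and TMSB10 had the highest median spread over libraries of those in Jurkat; IVA12 thymosins, with a median of 0 UMIs per cell, are too sparse for this measure. With cells thinned to 5000 UMIs (cells of fewer left out), the spread beyond sampling was taken as the squared coefficient of variation above that of random counts. For Tmsb4x in EL4 it was 1.38 to 2.17 over the 7 libraries, against 0.113 to 0.331 for Tmsb10, 0.0931 to 0.691 for Actb, 0.0164 to 0.319 for Cfl1 and 0.0343 to 0.317 for Coro1a in the same cells. In 3′ v3 replicate 1 the tenth percentile of Tmsb4x was 0, the median 2 and the ninetieth percentile 8 UMIs per EL4 cell, and in replicate 2 the same points were 0, 0 and 2 UMIs. The share of EL4 cells with no Tmsb4x UMI at that depth was 13.2% to 59.3%, highest in 3′ v3 replicates 2 and 4. In Jurkat TMSB10 stood at 0.277 to 0.920, with 3 at the tenth percentile, a median of 8 and 22 at the ninetieth in 3′ v3 replicate 1, beside 0.0928 to 0.309 for TMSB4X, 0.0690 to 0.202 for ACTB, 0.0278 to 0.141 for CFL1 and 0.155 to 0.302 for CORO1A. CORO1A exceeded TMSB10 in 5′ v1 replicate 2 (0.296 against 0.277).

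Within a line, levels of the members were weakly related from cell to cell in the median over libraries. At 5000 UMIs per cell, Spearman's rho between TMSB4X and TMSB10 in Jurkat was 0.202 to 0.398 over the 7 libraries, between Tmsb4x and Tmsb10 in EL4 0.132 to 0.411, and between ACTB and CFL1 in Jurkat 0.180 to 0.460. Between Actb and Coro1a in EL4 it was 0.0362 to 0.173. Over all 40 pairs of member genes within a line, with the small TALL-104 cells thinned to 1000 UMIs instead, the median over libraries ran from -0.04 to 0.36, and pairs such as Tmsb4x and Tmsb10 in IVA12 (-0.128 to 0.0334) lay on both sides of 0. Single libraries reached further, down to -0.572 for TMSB10 and CORO1A in the 30 TALL-104 cells of 5′ v1 replicate 2. These describe cells of shared libraries and small counts, and no test was made.

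Across the 14 pools of library and line of a species, the genes whose levels ran closest to each member were listed as a description, by Pearson's r of log2(CPM + 1) among genes with a mean of at least 50 CPM (2704 mouse, 3193 human). For Tmsb4x they included Tmsb10 (r = 0.991), and for Tmsb10 they were S100a6 (0.994) and Mt3 (0.993); S100a6 is one of the genes that named the EL4 cells. Actb ran closest to Ube2m (0.978) and Ssb (0.977), Coro1a to Clta (0.978) and Coq7 (0.975), and Cfl1, less closely, to Mrpl16 (0.916) and Mrpl42 (0.909). In human TMSB4X ran closest to PPP1R18 (0.977) and RGS10 (0.969), CORO1A to ANXA2 (0.967) and CD48 (0.965), TMSB10 to DPM3 (0.949) and NDUFA1 (0.916), CFL1 to MANF (0.926) and HSPB11 (0.890), and ACTB to HNRNPF (0.919) and ECHDC1 (0.913). The pools share lines, libraries and mixtures, so that r mostly follows those. Among the members the highest r after the thymosin pair was 0.781, between Tmsb10 and Coro1a, and that of ACTB with CFL1 was 0.6545.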

How the data were processed

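Single-cell libraries were sorted by the kit that their titles name; 7 of the 8 listed were used, without the first 3′ v2 library. The authors had downsampled reads with seqtk, counted with Cell Ranger (3.0.2) against a joint hg19 and mm10 reference, and deposited raw UMI counts for all barcodes, unpooled. Lines were named by summed genes: EL4 where Lgals1, S100a6 and Perp were at least 5 times Epcam, Cd24a, Ctss and Ckap4, IVA12 in the reverse case, TALL-104 where NKG7, CST7 and CD8A held at least 0.1% of UMIs, and Jurkat where they held under 0.02%. Doublets of 2 species fail the 80% limit only where neither species holds over 80% of the UMIs. A large mouse cell joined with a small TALL-104 cell can pass it. Other doublets were not removed. The UMIs of the other species in doublets that pass enter the scaling of free RNA.

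UMIs were summed per library and line and tested with edgeR 4.0.16 (TMM, filterByExpr, quasi-likelihood, Benjamini-Hochberg over all genes of a species). Line and interaction fits had library as a block, since both lines share each library. Alternatives were DESeq2 1.42.0, library totals, no filter, mitochondrial genes left out, at least 2500 UMIs, no cells above 10% mitochondrial UMIs, a stricter line rule, free RNA subtracted, single kits or mixtures, and each library left out; leaving out cells above 150000 UMIs and averaging ratios within mixtures were added after seeing the data. Scripts were tested on simulated data. Intervals of cell shares cover counting error only. Those of fits are 1.96 SE, which is narrow for so few libraries. Members, gene lists and marker lists were chosen with earlier results of these data known. All members were named in the text, with up to 3 listed genes per direction and line comparison by size; Gm9844, POTEF and the gamma-actins were added as copies. No reference of these builds was used, so locations and sequences are not given. A marker gene and a gene close to Tmsb4x are not reported here.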

Additional observations from a re-analysis of the deposited data

Results flagged for a closer look

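The difference between EL4 and IVA12 differed between 3′ v3 and 5′ v1 in edgeR's test of the interaction for 4 mouse genes. They were Actb (0.83), Cfl1 (0.68), Tmsb10 (-1.44) and Tmsb4x (-2.69), all on the log2 scale as 3′ v3 minus 5′ v1. Kit and cell mixture cannot be told apart in this test, which counts repeat libraries of a mixture as separate. The Actb and Cfl1 values kept their direction and their call in each of 15 alternatives, and both thymosin calls were lost with free RNA subtracted. The free RNA estimate exceeded the IVA12 thymosin level in several libraries, so that refit cannot decide the thymosin values. In 20 groups of member and line, no single 3′ v3 library was set apart from the other 3. That measure cannot see a split of 2 against 2.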

How the results depend on the processing

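Single members were refitted 680 times over the comparisons. Some of these refits could not differ, since leaving out cells above 150000 UMIs touches only an EL4 pool. Of the 680, 636 kept their side of the threshold and, where called, their direction. A call was gained in 28 and lost in 13, and 3 turned while also gaining (the first 2) or losing it. Those 3 were Cfl1 between EL4 and IVA12 in 3′ v3 alone (0.15), CFL1 between Jurkat and TALL-104 in 5′ v1 alone (0.40), and Tmsb10 in the mouse interaction with free RNA subtracted (2.63). In that last refit 2 of the 5 genes passed in place of 4, and 20.9% of all genes in place of 34.3%. Without the replicate block, 3 of the 5 genes passed between the mouse lines and 2 between the human lines, where 59.2% and 50.9% of all genes passed, since Actb (1.13, adjusted p = 0.0517) and TMSB10 (-0.54, adjusted p = 0.164) did not pass.

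The number of members passing between kits was least settled. In EL4 it was 1, and 2 with DESeq2 (41.7% of all genes), 3 with library totals (33.9%), 4 with 3′ v3 replicates 1 and 3 alone (66.4%), 4 with replicates 2 and 4 alone (70.8%), and 1 to 2 with single libraries left out. In IVA12 it was 1, and 4 and 2 with those pairs (60.2% and 66.9%), and 0 to 1 with libraries left out. In Jurkat it was 1, and 2 with DESeq2 (26.0%) or library totals (14.7%), 0 without the filter (10.6%), with cells above 10% mitochondrial UMIs left out or under the stricter line rule (15.1% and 15.7%), 2 and 5 with the pairs (59.8% and 72.9%), and 0 to 1 with libraries left out. In TALL-104 it was 0, and 2 with either pair (17.9% and 34.6%). Over all genes, edgeR's calls in EL4 were 4480, and 1541 and 1063 without 5′ v1 replicate 1 or 2, 7906 and 8210 with the pairs; the corresponding counts were 1164, 18, 42, 7025 and 7711 in IVA12, 2473, 113, 202, 8210 and 9434 in Jurkat, and 386, 9, 46, 1303 and 2247 in TALL-104. In IVA12, 686 and 769 genes passed without 3′ v3 replicate 2 or 4 and 2002 with DESeq2. In TALL-104, 706 passed without the filter, 252 with at least 2500 UMIs and 628 without 3′ v3 replicate 1. The human interaction gave 132, and 200 with DESeq2, 290 without the filter, 65 with free RNA subtracted and 2 to 221 with libraries left out; the mouse interaction gave 4126, and 2502 with free RNA subtracted and 1540 or 1698 without a 5′ v1 library. Between the human lines 6670 passed, and 3231 in 5′ v1 alone. Without the filter the median of all genes between the human lines moved by 0.54, and DESeq2 moved that of the human interaction by 0.25.

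With free RNA subtracted, the mouse ratio of thymosins to actin could be taken in 3 libraries (7.01, exact permutation p = 0.25, the smallest possible) and that of Tmsb10 to Tmsb4x in 2 (-2.67, p = 0.5); the latter ranged from -0.84 to -0.46 with single libraries left out. Averaged within the 4 cell mixtures, a choice made after seeing the data, the ratio of thymosins to actin differed by 4.99 in mouse and -1.12 in human, and that of the 2 thymosins by -0.57 and 1.05, with exact permutation p of 0.125, 0.125, 0.25 and 0.125. The stricter line rule left no TALL-104 cell in 3′ v3 replicate 3. Few TALL-104 cells in 5′ v1 limit every kit comparison in that line.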
